A study of Canis lupus with 20 samples.

Results

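This account concerns 3 genes of the cardiac cell junction, CTNNA2, GJA1 and GJA5, in the left heart of dogs. All probe sets that the annotation supplied with the arrays assigns to 1 of these symbols alone were taken. That gave 9 of 43035 probe sets on the array, namely 4 for CTNNA2, 2 for GJA1 and 3 for GJA5. All 9 passed the filter on low values, which was computed over all 20 arrays together and not within groups.

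The study removed the right kidney of 6 otherwise normal dogs (uninephrectomy, UNX), and 6 dogs had a sham operation. Hearts were taken 12 weeks later, and RNA of whole tissue was hybridised to Affymetrix canine arrays, 1 array per sample. The 4 groups were UNX left atrium, sham left atrium, UNX left ventricle and sham left ventricle, with 5 arrays each. Breed, age and sex are not given in the sources used here, and neither are the reasons for using 5 of the 6 dogs.

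Alpha catenins join cadherins at the cell surface to the actin cytoskeleton, and in heart muscle they sit at the intercalated disc, where neighbouring myocytes are coupled mechanically. CTNNA2 encodes alpha-N-catenin, best known from neurons, while CTNNA1 and CTNNA3 encode the alpha catenins usually described in heart. Connexins form the gap junctions that carry the electrical impulse between myocytes: GJA1 encodes Cx43, the main connexin of working myocardium, and GJA5 encodes Cx40, known from atrial myocytes, the ventricular conduction system and arterial endothelium.

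Values are log2 signals as deposited. They depend on the probes, so levels are compared between groups for 1 probe set and not between probe sets or genes. The array medians lay between 2.33 and 2.39, and signals in that region are close to the bottom of the scale, where log2 differences are compressed or depend on how background was handled. Tissue labels were set beside marker lists, which were drawn up with earlier results of these arrays known. The mean log2 signal of 12 atrial markers was 7.93 to 8.31 in UNX atria, 7.87 to 8.41 in sham atria, 4.73 to 5.41 in UNX ventricles and 4.68 to 5.54 in sham ventricles. The mean of 8 ventricular markers was 6.92 to 7.39 in UNX atria, 6.84 to 7.13 in sham atria, 10.86 to 11.09 in UNX ventricles and 10.91 to 11.16 in sham ventricles. Every array fell on the side of its label for both lists, which is a description and no independent check. Of the 8 ventricular markers, KCNIP2 was called higher in atria, by 1.51 in UNX and 1.94 in sham dogs, and 7 were called lower. In whole tissue, fewer cells of a type and less RNA per cell cannot be told apart.

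CTNNA2 was high in every atrial array and near the bottom of the scale in every ventricular array. On its brightest probe set the 5 UNX atria read 10.88, 10.61, 10.78, 10.80 and 10.62, and the 5 sham atria 10.94, 10.72, 10.93, 10.62 and 10.75. The 5 UNX ventricles read 1.69, 1.60, 1.55, 1.64 and 1.65, and the 5 sham ventricles 2.22, 1.50, 2.61, 1.95 and 1.92. The chambers were separated by about 8 log2 units with no overlap, and the atrial arrays of both operations covered the same narrow range. Group means were 10.74 ± 0.12 in UNX atria, 10.79 ± 0.14 in sham atria, 1.63 ± 0.06 in UNX ventricles and 2.04 ± 0.41 in sham ventricles (SD, n = 5 each).

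The atrium minus ventricle difference was 9.11 ± 0.14 (SE) in UNX dogs, 554-fold, and 8.75 ± 0.14 in sham dogs, 432-fold. CTNNA2 was chosen because of this difference, so it is given here as a description with no test. In both operations it ranked 5 from the highest among 30047 tested probe sets. Because the ventricular signal lay at the bottom of the scale, the fold depends on where the array's background lies. Whether ventricular tissue held any CTNNA2 transcript was not determined, since no detection call was used.

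**Figure D1:**
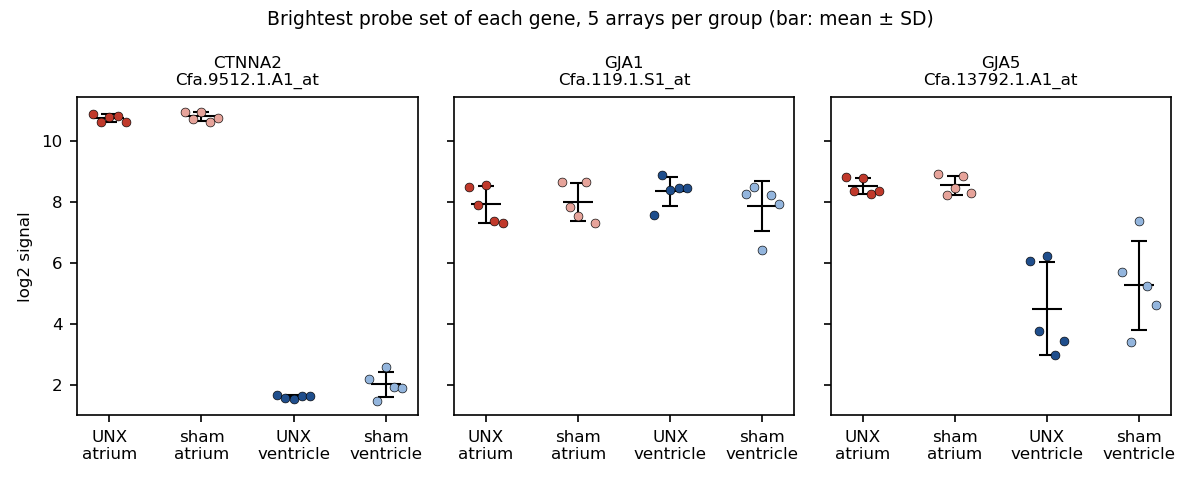
Log2 signal (y axis) of the brightest probe set of CTNNA2, GJA1 and GJA5 in UNX atrium, sham atrium, UNX ventricle and sham ventricle. Points are the 5 arrays of a group and bars are the mean ± SD. CTNNA2 stands above 10 in all atria and below 3 in all ventricles, GJA1 overlaps across all 4 groups, and GJA5 is lower and more scattered in ventricles.

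The other 3 CTNNA2 probe sets had the same direction with smaller differences. In order of mean signal, the second read 8.34, 8.05, 7.81, 6.72 and 7.20 in UNX atria and 8.11, 7.53, 6.57, 6.85 and 7.94 in sham atria. In ventricles it averaged 1.94 ± 0.24 in UNX dogs and 2.06 ± 0.24 in sham dogs (SD, n = 5 each). Its atrial arrays spread over more than 1 log2 unit in each operation, whereas those of the brightest probe set stayed well within 1. The difference between chambers was 5.68 ± 0.30 in UNX dogs and 5.34 ± 0.30 in sham dogs (SE).

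The third CTNNA2 probe set averaged 5.74 ± 0.94 in UNX atria, 5.36 ± 0.72 in sham atria, 3.27 ± 0.07 in UNX ventricles and 3.33 ± 0.20 in sham ventricles, and the chambers differed by 2.47 ± 0.35 in UNX dogs and 2.03 ± 0.35 in sham dogs. The fourth averaged 4.77 ± 0.38 in UNX atria, 5.18 ± 0.46 in sham atria, 2.49 ± 0.15 in UNX ventricles and 2.56 ± 0.26 in sham ventricles, with chamber differences of 2.28 ± 0.20 and 2.62 ± 0.20 in UNX and sham dogs. For all 4 CTNNA2 probe sets every atrium lay above every ventricle in both operations. That held for 11.4% of tested probe sets in UNX dogs and 7.59% in sham dogs. Since CTNNA2 was chosen for its chamber difference, this is a description and no test.

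The 4 probe sets did not vary together from array to array. When each array's deviation from the mean of its own group was taken, the second and the third correlated at r = 0.91 (20 arrays). The brightest probe set followed neither of these (r = 0.06 and -0.04) and correlated at r = 0.60 with the fourth. Which exons the probe sets read was not analysed here.

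These 2 probe sets, the second and the third, also moved with a measure of RNA quality. The 3' gap is the mean signal of the array's 3' controls for ACTB, GAPDH and EEF1A minus that of the middle and 5' controls of the same transcripts, and a larger gap is usually read as more degraded or shorter labelled RNA. It averaged 4.37 ± 0.31 in UNX atria, 4.54 ± 0.17 in sham atria, 3.90 ± 0.28 in UNX ventricles and 4.26 ± 0.27 in sham ventricles (SD, n = 5 each). Over the 10 atrial arrays, the second CTNNA2 probe set against the gap had a negative slope (Pearson r = -0.79, permutation p = 0.00708; Spearman rho = -0.81, p = 0.00736), and r was -0.73 without the 2 arrays farthest from the median gap. The third had r = -0.82 (permutation p = 0.00474; rho = -0.82, p = 0.00604) and r = -0.73 without those 2 arrays. Among 18 such relations, 9 probe sets in 2 chambers, none passed after adjustment, and these were the smallest (adjusted p = 0.0637 for both r values and 0.0662 for both rho values). The brightest and the fourth CTNNA2 probe set had r = 0.05 and 0.06 over the same arrays, and the second GJA5 probe set r = -0.76 (permutation p = 0.0131, adjusted p = 0.0784). In the 10 ventricles r was positive for the brightest CTNNA2 probe set (r = 0.62, permutation p = 0.0535, adjusted p = 0.160) and the fourth (r = 0.71, p = 0.0216, adjusted p = 0.0970), with 0.27 and 0.49 without the 2 farthest arrays. The second and the third had r = 0.10 and -0.20 there. The permutations did not keep the operations apart, and UNX and sham ventricles differed in mean gap. The part of the gap in these levels was not tested beyond this.

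**Figure D2:**
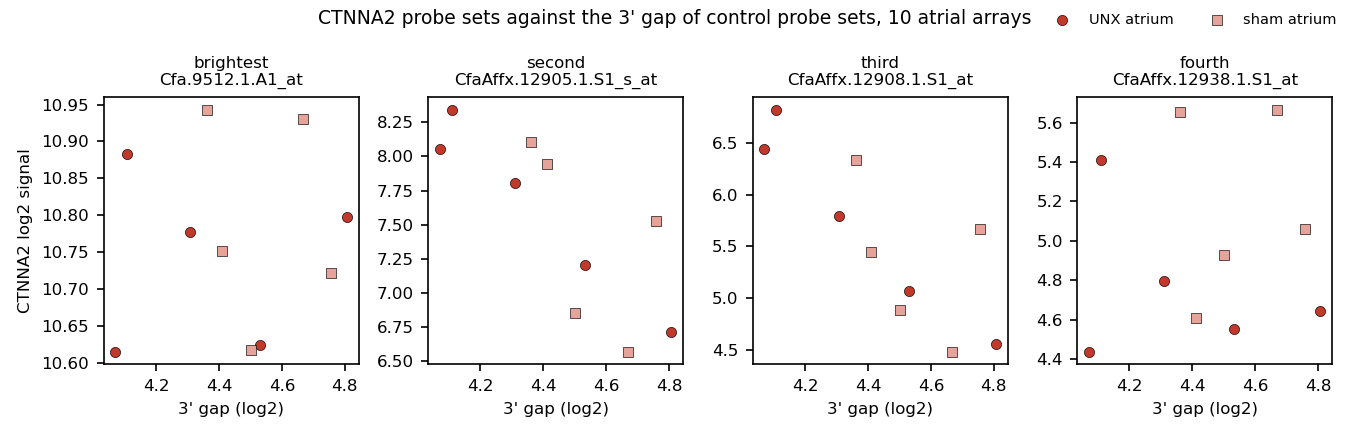
Log2 signal of each CTNNA2 probe set (y axis, own range per panel) against the 3' gap in log2 units (x axis) for 5 UNX atria (circles) and 5 sham atria (squares). The middle panels, the second and the third probe set, slope down from left to right (r = -0.79 and -0.82), and the outer panels do not.

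No measured probe set of the relatives of CTNNA2 was called higher in the atrium. CTNNA1, the widely expressed alpha-E-catenin, averaged 11.28 in UNX atria, 11.24 in sham atria, 11.46 in UNX ventricles and 11.42 in sham ventricles on its brightest probe set. Its atrium minus ventricle difference was -0.19 ± 0.07 in UNX dogs (limma, adjusted p = 0.0572) and -0.17 ± 0.07 in sham dogs (adjusted p = 0.0945), and neither was called. Its other 2 probe sets, at -0.48 ± 0.23 and -0.86 ± 0.50 in UNX dogs and -0.33 ± 0.23 and -0.50 ± 0.50 in sham dogs, were not called. CTNNAL1, alpha-catulin, was lower in atria, at 8.32 in UNX and 8.53 in sham atria against 8.95 in UNX and 9.05 in sham ventricles. The differences were -0.63 ± 0.17 (limma, adjusted p = 0.00952) in UNX dogs and -0.52 ± 0.17 (adjusted p = 0.0363) in sham dogs, while its other 2 probe sets were not called.

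CTNNA3, the alpha-T-catenin of heart and testis, had 7 probe sets, of which 4 passed the filter. All were dim, with 5.46 in 1 sham ventricle as the highest value. In both operations 2 of these were called lower in atria. The brighter of them was lower in atria, by -0.34 ± 0.12 in UNX dogs (limma, adjusted p = 0.0372) and -0.53 ± 0.12 in sham dogs (adjusted p = 0.00268). LRRTM1, a neuronal synapse gene that lies within the span of CTNNA2 in the RefSeq wolf assembly mCanLup2.hap1 and was looked up after the CTNNA2 values were known, read 2.03 to 2.58 over all 20 arrays.

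Since CTNNA2 is best known from neurons, a list of 20 neuronal genes was read beside it. Of 14 tested, 2 were higher in the atrium and 12 were not called, in both operations. That share is near the 14.7% (UNX) and 11.2% (sham) of all tested probe sets called higher. STMN2, stathmin-2 of growing axons, differed by 1.83 ± 0.63 in UNX dogs (limma, adjusted p = 0.0370) and 2.56 ± 0.63 in sham dogs (adjusted p = 0.00647). TUBB3, the neuronal beta-tubulin, differed by 0.32 ± 0.10 (adjusted p = 0.0193) and 0.42 ± 0.10 (adjusted p = 0.00411) in UNX and sham dogs. NEFL, a neurofilament subunit, had -0.05 ± 0.62 and 0.90 ± 0.62, and UCHL1, a neuronal deubiquitinase, 1.56 ± 0.97 and 0.75 ± 0.97 in the same order, with none of these called. The list's mean level was 2.78 to 3.05 in UNX atria, 2.58 to 3.78 in sham atria, 2.68 to 2.81 in UNX ventricles and 2.51 to 2.80 in sham ventricles. In UNX atria 10 of the 14 stayed below 3 in every array, in sham atria 7. The sham atrium with the highest neuronal mean, 3.78, read 10.62 on the brightest CTNNA2 probe set. That was the lowest value of a narrow group range, 10.62 to 10.94. On each of the other CTNNA2 probe sets another sham atrium was lowest. Of 6 Schwann cell markers, 2 were higher and 1 lower in the UNX atrium, and 2 were higher in the sham atrium, beside shares over all probe sets of 14.7% higher and 12.5% lower in UNX dogs and 11.2% and 9.62% in sham dogs. The part of nerve cells in the CTNNA2 level was not tested.

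Genes of adherens junctions and their anchors changed in both directions. Of 25 tested members of a list of catenins, cadherins and associated proteins, CTNNA2 included, 4 were higher and 7 lower in the UNX atrium and 4 higher and 6 lower in the sham atrium. CTNNA2, chosen for its chamber difference, is 1 of the 4 higher in each operation, so these counts are a description. Over all tested probe sets the shares were 14.7% higher and 12.5% lower in UNX dogs, and 11.2% higher and 9.62% lower in sham dogs. The median difference of the list was -0.12 in UNX dogs and -0.15 in sham dogs, beside -0.02 and -0.01 over all tested probe sets. CDH11, a mesenchymal cadherin, was higher in atria by 3.14 ± 0.53 in UNX dogs (limma, adjusted p = 0.00021) and 2.28 ± 0.53 in sham dogs (adjusted p = 0.00434). NECTIN3, a nectin adhesion receptor, was higher by 1.66 ± 0.24 and 1.54 ± 0.24. LDB3, a Z-disc protein also called ZASP, was lower by -1.05 ± 0.24 and -0.98 ± 0.24, in UNX and sham dogs in that order. CDH2, the N-cadherin of the intercalated disc, was also lower in atria, with -0.25 ± 0.06 in UNX dogs (limma, adjusted p = 0.00582) and -0.41 ± 0.06 in sham dogs (adjusted p = 0.00011). Of 13 tested cardiomyocyte markers, LDB3 included, 0 were higher and 8 lower in the atrium in both operations (median -0.34 in UNX, -0.30 in sham dogs). Of 12 tested fibroblast markers, 9 were higher in the UNX and 8 in the sham atrium, and 0 lower (median 1.07 and 0.73). The part of cell composition in the junction gene differences was not tested.

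In the desmosome list, 2 of 10 tested genes were higher and 3 lower in the UNX atrium, and 2 higher and 1 lower in the sham atrium. With 10 genes these counts are not far from the shares over all probe sets, 14.7% higher and 12.5% lower in UNX dogs and 11.2% higher and 9.62% lower in sham dogs. PPL, the plakin periplakin, was higher by 1.60 ± 0.18 in UNX and 1.05 ± 0.18 in sham dogs, and DSC2, the cardiac desmocollin, by 0.68 ± 0.09 and 0.45 ± 0.09. DSP, desmoplakin, was lower by -1.46 ± 0.36 in UNX dogs (limma, adjusted p = 0.00527) and -1.15 ± 0.36 in sham dogs (adjusted p = 0.0288). PKP2, plakophilin-2, had -0.90 ± 0.26 in UNX dogs (adjusted p = 0.0137) and -0.52 ± 0.26 in sham dogs, where it was not called (adjusted p = 0.172). TMEM43, an inner nuclear membrane protein, had 0.07 ± 0.30 in UNX dogs and 0.49 ± 0.30 in sham dogs, neither called. Whether the operations differed in this was tested by the difference of effects, which was called for no probe set.

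GJA5 was higher in the atrium than in the ventricle on all of its probe sets, in both operations. On the brightest, the UNX atria read 8.81, 8.37, 8.78, 8.25 and 8.37, and the sham atria 8.89, 8.23, 8.45, 8.84 and 8.28. The UNX ventricles read 6.08, 3.78, 6.23, 3.00 and 3.46, and the sham ventricles 5.70, 3.41, 7.38, 5.25 and 4.63. Atria were tightly grouped and lay above every ventricle, while ventricular arrays of each operation spread over more than 3 log2 units.

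The atrium minus ventricle difference was 4.01 ± 0.63 in UNX dogs (16.1-fold, 95% confidence interval 2.68 to 5.33; limma, adjusted p = 0.000113) and 3.26 ± 0.63 in sham dogs (9.60-fold, 1.94 to 4.59; adjusted p = 0.00102). Atria were higher in all 5 against all 5 arrays each time. The 3' gap, which was larger in atria, was entered as a covariate among the alternatives, and the brightest GJA5 probe set was called under all of them.

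The second GJA5 probe set read 6.58, 6.60, 6.45, 5.46 and 6.07 in UNX atria and 6.91, 5.41, 5.61, 6.84 and 5.86 in sham atria. It read 4.06, 3.59, 4.09, 2.69 and 3.75 in UNX ventricles and 4.18, 3.59, 4.46, 4.29 and 4.09 in sham ventricles. The chambers did not overlap in either operation. The difference was 2.60 ± 0.32 in UNX dogs (limma, adjusted p = 7.54e-06) and 2.00 ± 0.32 in sham dogs (adjusted p = 0.000159). The third was dim throughout, at 2.84 ± 0.25 in UNX atria, 3.00 ± 0.31 in sham atria, 2.21 ± 0.08 in UNX ventricles and 2.24 ± 0.15 in sham ventricles (SD, n = 5 each), with differences of 0.63 ± 0.13 (adjusted p = 0.00155) and 0.76 ± 0.13 (adjusted p = 0.000405) in UNX and sham dogs. All 3 GJA5 probe sets were thus called higher in atria in both operations, against 14.7% of all tested probe sets in UNX dogs and 11.2% in sham dogs. In either direction, 27.3% of probe sets were called in UNX dogs and 20.8% in sham dogs.

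GJA1 overlapped between all 4 groups. On its brighter probe set the UNX atria read 8.48, 7.88, 8.57, 7.36 and 7.31, and the sham atria 8.63, 7.83, 7.52, 8.65 and 7.31. The UNX ventricles read 7.58, 8.88, 8.39, 8.44 and 8.44, and the sham ventricles 8.25, 8.47, 6.44, 8.23 and 7.93. Arrays of 1 group differed by more than 1 log2 unit, and the single value under 7 was a sham ventricle.

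The GJA1 difference between atrium and ventricle was -0.43 ± 0.38 in UNX dogs (95% confidence interval -1.22 to 0.36; limma, adjusted p = 0.439) and 0.13 ± 0.38 in sham dogs (-0.66 to 0.92; adjusted p = 0.856). Neither was called, and the intervals allow a difference of more than 2-fold lower in the UNX atrium and of almost 2-fold higher in the sham atrium. Without the low sham ventricle the sham difference was -0.23, and with the 3' gap as a covariate the UNX difference was 0.09, so the sign was not settled in either operation. The other probe set gave -0.37 ± 0.41 in UNX dogs and -0.07 ± 0.41 in sham dogs. The 2 GJA1 probe sets correlated at r = 0.96 in their within-group deviations (20 arrays), so the spread was shared by both. Whether GJA5 and GJA1 differed from each other in their chamber difference was not tested.

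**Figure D3:**
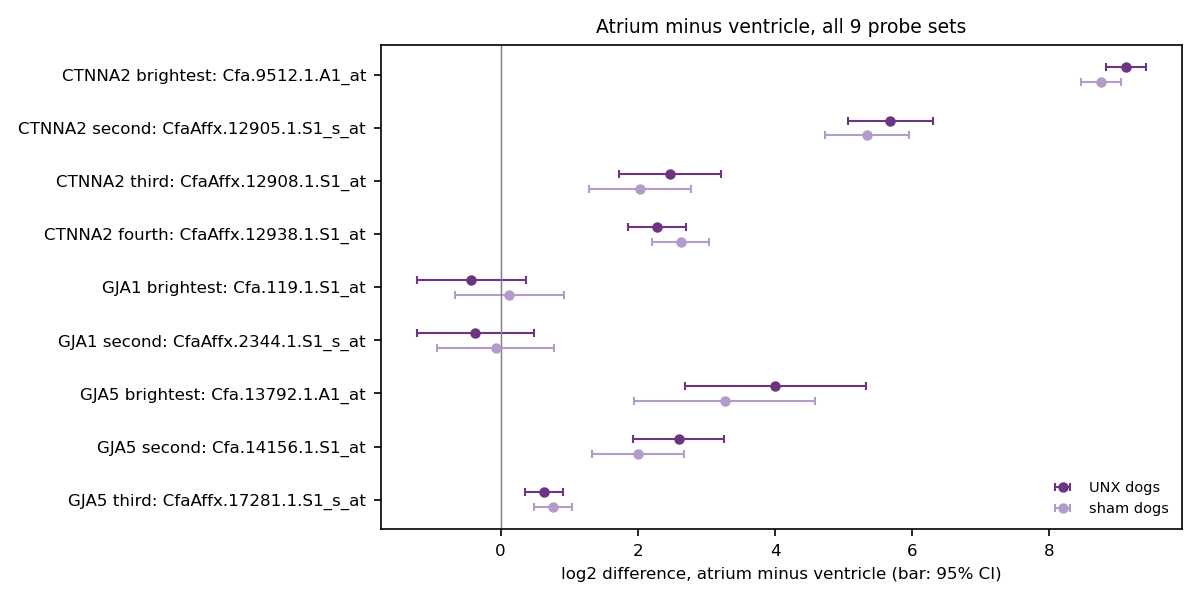
Atrium minus ventricle difference (x axis, log2 units) of the 9 probe sets (y axis) in UNX dogs (dark) and sham dogs (light). Points are estimates and bars 95% confidence intervals. The GJA5 intervals lie to the right of 0 and the 4 GJA1 intervals cross it. CTNNA2 was chosen for its chamber difference, so its intervals are a description and no test.

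Of the other connexins none was called. GJC1, Cx45 of the nodes and conduction system, averaged 5.02 in UNX atria, 5.10 in sham atria, 4.50 in UNX ventricles and 4.38 in sham ventricles. The chamber differences of 0.52 ± 0.29 in UNX dogs (limma, adjusted p = 0.206) and 0.72 ± 0.29 in sham dogs (adjusted p = 0.0927) were not called. GJA3, GJB1, GJB2, GJB5, GJC3 and GJD2 together had 10 probe sets, of which 2 passed the filter, and they read 1.04 to 2.52 over all arrays. Of 6 tested connexins and pannexins, GJA5 was the 1 gene called, in both operations, a share near the 14.7% (UNX) and 11.2% (sham) of all tested probe sets called higher. PANX2, a pannexin, had -0.14 ± 0.07 in UNX dogs and -0.01 ± 0.07 in sham dogs.

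Among 15 tested genes whose proteins bind, anchor or traffic connexins, 5 were higher and 2 lower in the UNX atrium, and 3 higher and 2 lower in the sham atrium. The 2 lower genes are near the background of 12.5% in UNX and 9.62% in sham dogs, and the higher ones stand beside 14.7% and 11.2%. CXADR, an adhesion receptor of the intercalated disc, was higher in atria by 0.45 ± 0.12 in UNX dogs (limma, adjusted p = 0.0101) and 0.67 ± 0.12 in sham dogs (adjusted p = 0.0006). CASK, a scaffold of the guanylate kinase family, was higher by 0.76 ± 0.21 and 0.65 ± 0.21. CAV1, caveolin-1, was higher by 0.31 ± 0.07 in UNX dogs and 0.37 ± 0.07 in sham dogs. ANK3, ankyrin-G, was lower in atria by -0.34 ± 0.08 in UNX dogs and -0.53 ± 0.08 in sham dogs. TJP1, the ZO-1 protein that binds Cx43, had -0.11 ± 0.06 and -0.13 ± 0.06 and was not called.

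Several transcription factors linked to the regulation of Cx40 and Cx43 differed between chambers. Of 15 tested, 6 were higher and 2 lower in the UNX atrium, and 5 higher and 2 lower in the sham atrium. Over all tested probe sets 27.3% were called in either direction in UNX dogs and 20.8% in sham dogs. The share called higher was 14.7% in UNX dogs and 11.2% in sham dogs. The 2 lower genes are near the background of 12.5% and 9.62%. NR2F1, COUP-TFI, a nuclear receptor of atrial myocytes, was higher by 6.79 ± 0.13 in UNX dogs and 6.81 ± 0.13 in sham dogs. FOS, an immediate early gene, was higher by 2.76 ± 0.33 and 3.05 ± 0.33. IRX5 and IRX3, Iroquois homeobox factors of the ventricle and its conduction system, were lower in atria, by -5.36 ± 0.41 and -3.06 ± 0.61 in UNX dogs and by -5.70 ± 0.41 and -2.97 ± 0.61 in sham dogs. These lists were drawn up with earlier results of the same arrays known, so their counts are descriptions.

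No probe set of the 3 genes was called between uninephrectomy and sham, and no probe set of the array was called in the left atrium or in the left ventricle (0.00% each), nor for the difference between the chambers' effects (0.00%). At an unadjusted p under 0.05 there were 2010, 2005 and 893 of 30047. None of the 9 member probe sets separated the operations completely, in either chamber, against 0.929% of tested probe sets in the atrium and 0.992% in the ventricle.

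In the atrium the UNX minus sham difference of the brightest CTNNA2 probe set was -0.05 ± 0.14 (95% confidence interval -0.34 to 0.24; limma, adjusted p = 0.964). The other CTNNA2 probe sets gave 0.22 ± 0.30, 0.37 ± 0.35 and -0.41 ± 0.20, so the sign differed between probe sets. GJA1 had -0.07 ± 0.38 (-0.86 to 0.72) and GJA5 -0.02 ± 0.63 (-1.35 to 1.30) on their brightest probe sets. The fit used 1 spread per probe set, pooled over the 4 groups. For GJA5 the SD was 0.26 in UNX and 0.31 in sham atria, against 1.53 in UNX and 1.46 in sham ventricles. The width of its atrial interval thus comes mostly from the ventricular arrays. The second GJA5 probe set gave 0.10 ± 0.32.

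In the ventricle CTNNA2 had -0.41 ± 0.14 (95% confidence interval -0.70 to -0.12; limma, unadjusted p = 0.00745, adjusted p = 0.610) on its brightest probe set. The UNX ventricles read 1.55 to 1.69 and the sham ventricles 1.50 to 2.61, so the groups overlapped, with the wider spread in sham dogs, and all 10 values lay near the bottom of the scale. The SE came from 1 spread pooled over the 4 groups. Their SDs were 0.12 in UNX atria, 0.14 in sham atria, 0.06 in UNX ventricles and 0.41 in sham ventricles. The pooled spread was thus smaller than that of the sham ventricles. An exact permutation test gave p = 0.0476 (adjusted p = 0.790 over 18 tests). The other CTNNA2 probe sets had differences from -0.11 to -0.07. GJA1 had 0.49 ± 0.38 (-0.31 to 1.28; adjusted p = 0.822) and GJA5 -0.77 ± 0.63 (-2.09 to 0.56; adjusted p = 0.837). Without sham ventricle 3 these were 0.13 and -0.24, and without single other ventricles they reached 0.68 and -1.23. The intervals from all arrays are wide enough to hold changes of more than 2-fold in 1 direction, a rise for GJA1 and a fall for GJA5. The 3' gap was lower in UNX than in sham ventricles, 3.90 ± 0.28 against 4.26 ± 0.27, and with it as a covariate the GJA1 difference was 0.09.

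The difference of the UNX effects, atrium minus ventricle, was 0.36 ± 0.19 for CTNNA2, -0.55 ± 0.53 for GJA1 and 0.74 ± 0.89 for GJA5, and none was called. In every list described above, 0 genes were called for uninephrectomy in either chamber. The smallest unadjusted p in the desmosome list was PPL in the atrium, at 0.61 ± 0.18 (limma, adjusted p = 0.637), and TMEM43 in the ventricle, at 0.98 ± 0.30 (adjusted p = 0.558). Among transcription factors these were NR2F1 in the atrium, at -0.29 ± 0.13, and FOS in the ventricle, at 0.79 ± 0.33. ANK3 in the atrium, at 0.22 ± 0.08, and CAV3, the muscle caveolin, in the ventricle, at -0.10 ± 0.10, had the smallest p among connexin partners. In the catenin list these were PDLIM5, a PDZ and LIM domain protein of the Z-disc, in the atrium, at -0.17 ± 0.07, and CTNNA2 itself in the ventricle. Among connexins and pannexins they were PANX2 in the atrium, at -0.11 ± 0.07, and GJA1 in the ventricle.

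**Figure D4:**
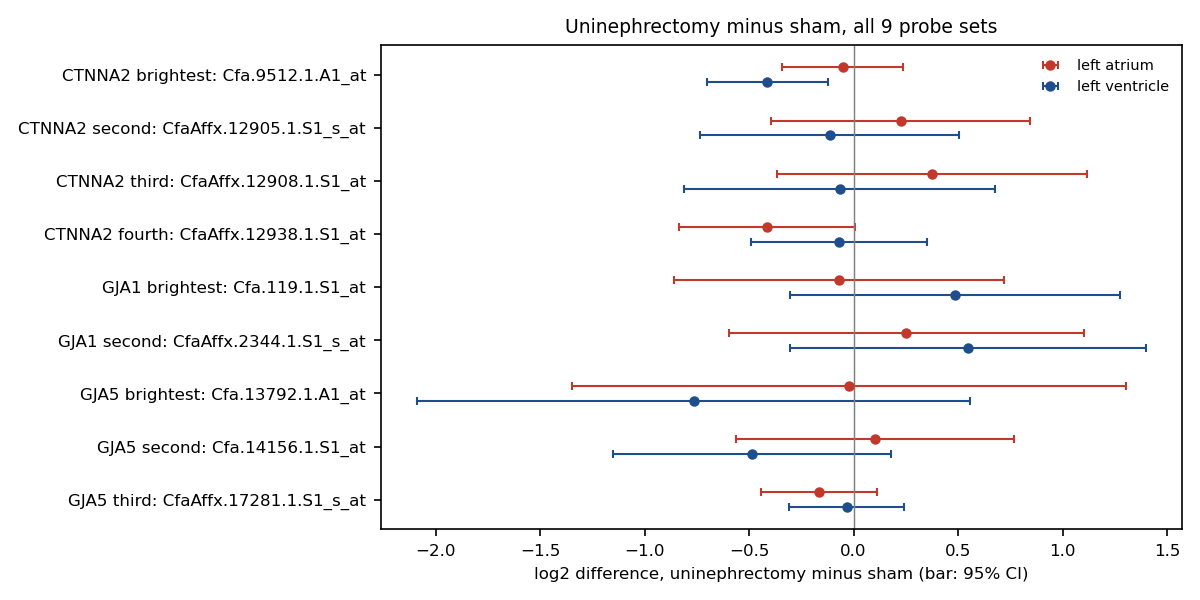
UNX minus sham difference (x axis, log2 units) of the 9 probe sets (y axis) in left atrium (red) and left ventricle (blue). Points are estimates and bars 95% confidence intervals. The interval of the brightest CTNNA2 probe set in the ventricle, -0.70 to -0.12, excludes 0 before adjustment for the number of probe sets tested. The other 17 intervals cross 0. All rest on 1 spread per probe set, pooled over the 4 groups.

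Some genes had within-group deviations like those of GJA5, which was most scattered in the ventricle. They were picked as the best of all genes read, and their correlations were not tested. Over all 20 arrays, the genes whose deviations from the group means correlated best with those of GJA5 were CRYM (r = 0.91), IRX2 (r = 0.89), EPHA7 (r = 0.87), PHKA2 (r = 0.82) and SPATA9 (r = 0.81), of 11423 genes. SPATA9, at 1.89 to 2.30 over all arrays, and IRX2 in atria, at 1.41 to 1.84, lay near the bottom of the scale. CRYM encodes a thyroid hormone binding protein, IRX2 an Iroquois factor and EPHA7 an ephrin receptor. In the 5 UNX ventricles CRYM read 4.42, 2.32, 4.58, 2.12 and 2.40, and in the 5 sham ventricles 3.80, 2.06, 4.67, 3.11 and 2.62. The arrays with high GJA5, UNX 1 and 3 and sham 3 and 1, were those with high CRYM.

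EPHA7 read 6.55, 4.87, 6.67, 3.09 and 4.89 in UNX ventricles and 6.50, 4.06, 6.62, 6.30 and 5.90 in sham ventricles. IRX2 ranged from 1.94 to 3.24 in UNX ventricles and from 1.96 to 3.54 in sham ventricles. IRX2 went against GJA5 between chambers, with means of 1.70 in UNX atria, 1.63 in sham atria, 2.45 in UNX ventricles and 2.79 in sham ventricles. It nevertheless had the second-highest correlation of deviations within groups.

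**Figure D5:**
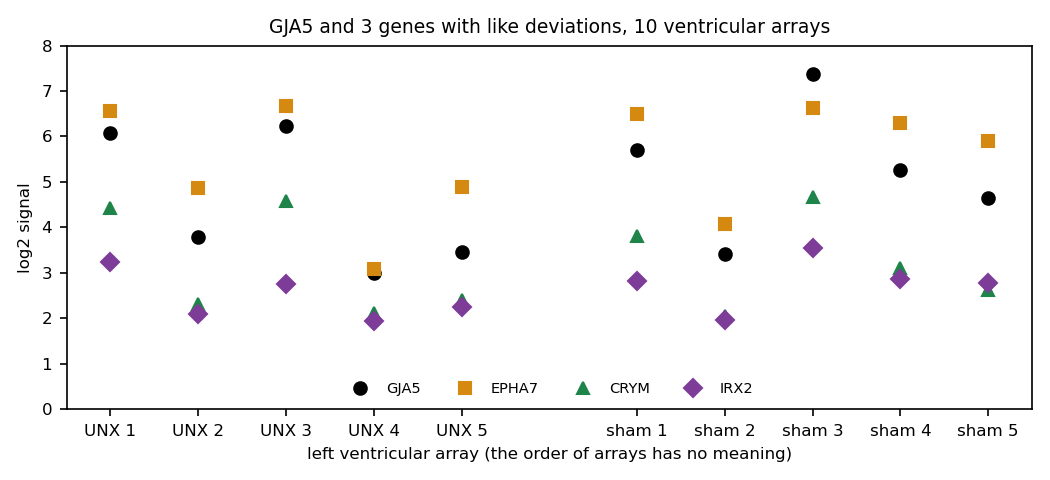
Log2 signal (y axis) of GJA5, EPHA7, CRYM and IRX2 in the 5 UNX and 5 sham left ventricular arrays (x axis). Each marker is 1 array. Arrays UNX 1, UNX 3 and sham 3 have the highest GJA5 values (6.08, 6.23 and 7.38) and the highest EPHA7 and CRYM values, while IRX2 in UNX 3 (2.75) is in the middle of its range.

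Ventricular GJA5 was also set against the mean of each cell type or chamber list, members of the 3 genes left out, over the 10 ventricular arrays. The atrial marker list had Pearson r = 0.73 (permutation p = 0.0156, adjusted p = 0.114) and Spearman rho = 0.64 (p = 0.0539, adjusted p = 0.292), with r = 0.69 without the 2 arrays farthest from the median. The list of cardiac conduction genes had r = 0.70 (permutation p = 0.0285, adjusted p = 0.114; rho = 0.71, p = 0.0256) and the endothelial list r = -0.67 (p = 0.0310, adjusted p = 0.114; rho = -0.59, p = 0.0796). Without the 2 farthest arrays these were 0.59 and -0.58. None of the 11 relations passed after adjustment. The conduction list rested on 4 tested genes, ETV1, IRX3, SCN10A and CACNA1G, while HCN4, TBX3 and SHOX2 were below the filter. In UNX and sham ventricles the SD was 1.52 and 1.40 for IRX3 and 0.55 and 0.92 for ETV1. It was 0.23 and 0.16 for SCN10A and 0.11 and 0.14 for CACNA1G. The variation of the list mean thus came mostly from IRX3 and ETV1. The arterial endothelial list had r = 0.45, and 0.15 without the 2 farthest arrays. The parts of conduction tissue, atrial tissue or endothelium in the ventricular GJA5 level were not tested.

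By the distance between profiles over the 20 arrays, after each gene's own mean was subtracted, CTNNA2 was closest to CRYM (root mean square distance 0.909 log2 units), HSD17B13 (0.971), NR2F1 (1.10), HPGDS (1.29) and TOX (1.35). Within groups, deviations of CTNNA2 correlated best with NUMB (r = 0.86), TEKT5 (0.81), KIF12 (0.81), ABCC6 (0.81) and OR1M1B (0.80). These were the best of 11423 genes, and NUMB, KIF12 and OR1M1B stayed below 3 on every array. All 5 were lowest among ventricles in sham ventricle 2, where CTNNA2 was also lowest (1.50), and 4 of them, NUMB excepted, were highest in sham ventricle 3, where it was highest (2.61), so no order is read from these values near the bottom of the scale. GJA5 was closest to EPHA7 (0.715), COL14A1 (0.764), ENPP2 (0.830), ROBO2 (0.854) and TMEM138 (0.889).

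GJA1 lay closest to UHMK1 (0.325), RNF11 (0.356), RAB5A (0.361), MTMR6 (0.369) and DDX6 (0.370). Its deviations correlated best with RAB5A (r = 0.91), C11H9orf72 (0.87), PCMTD2 (0.86), HIBCH (0.86) and FH (0.86). Among ventricles all 5 were lowest in sham ventricle 3 (RAB5A 5.90, FH 10.50), the array with the lowest GJA1 value and the largest ventricular 3' gap (4.57). GJA1 deviations correlated at r = -0.45 with those of the gap over the 20 arrays, and the part of the gap in these relations was not tested. RAB5A, a GTPase of early endosomes, stood in both lists.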

How the data were processed

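Per the labels' protocols, RNA was isolated with Trizol and labelled with biotin by the Affymetrix IVT Express protocol. The deposited values of 20 arrays are on a log2 scale and were used as deposited. The steps by which the authors derived them are not given in the sources used here. The lowest value is 0.43 and the highest 15.0.

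The 111 control probe sets were dropped from 43035. A filter then removed the dimmest 30% by mean over the 20 arrays (cut at log2 1.87), and 30047 were tested. The supplied annotation gives 29264 probe sets 1 symbol and 439 several, and does not list 13332. limma 3.58.1 in R 4.3.3 fitted 4 group means to all 20 arrays (16 residual degrees of freedom), with two-sided moderated tests, Benjamini-Hochberg adjustment over all tested probe sets and calls at an adjusted p under 0.05. The script was tested on simulated data. Correlations used 100000 random permutations per relation (Python 3.11.15).

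The genes and lists were chosen with earlier results of these data known. Each list gene was read on its brightest probe set. Text names follow a rule: all probe sets of the 3 genes, all measured alpha catenins and connexins, up to 4 genes per list with the largest chamber difference in sham dogs, the smallest p per uninephrectomy contrast, and the 5 nearest genes by distance and by correlation. CDH2, DSC2, TJP1, PANX2 between chambers and LRRTM1 fall outside this rule and were named after their values were seen.

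The labels give replicate numbers 1 to 5 in every group but do not say that a number marks 1 dog. Deviations of same-numbered sham arrays correlated at 0.463, 0.226, 0.373, 0.295 and 0.209, and those of UNX arrays at -0.061, -0.069, 0.115, -0.235 and 0.097. By a rule of all pairs over 0.1, the sham numbers paired atrium and ventricle and the UNX numbers did not. The UNX ventricles with the highest correlation to UNX atria 1 to 5 were 3, 4, 1, 5 and 2, so each was matched once under another number. Whether these were from the same dogs was not tested. The labels state that no replicates were run, and the arrays are taken as 1 per dog and chamber. Alternatives were another filter, quantile normalization, a median shift, array weights, the 3' gap as covariate, a variance trend, only the groups compared, the replicate block, other probe sets and each array left out.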

Additional observations from a re-analysis of the deposited data

Results flagged for a closer look

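One value stood far from the other arrays of its group. GJA1 on its brighter probe set read 6.44 in sham left ventricle array 3, where the nearest of the other 4 arrays read 7.93, and the gap was 0.731 of the group's range. The criterion was Dixon's test at the 95% level, applied to 36 groups of 5 arrays, and chance alone flags about 1 in 20. The second GJA1 probe set was also lowest in that array, at 4.97. The same array had the highest ventricular GJA5 value, 7.38, the highest ventricular CTNNA2 value, 2.61, the largest 3' gap among ventricles, 4.57, and the lowest weight of the 20 arrays in the weighted fit, 0.614. The part of RNA quality in these values was not tested beyond the covariate fit.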

How the results depend on the processing

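The chamber calls of the brightest GJA5 probe set held under every alternative run. The other GJA5 probe sets were called in the setting reported, and their results under the other settings are not given here. Over 9 settings that kept the probe set, the atrium minus ventricle difference of the brightest was 3.94 to 4.02 in UNX dogs (limma, largest adjusted p = 0.00156) and 3.18 to 3.36 in sham dogs (largest adjusted p = 0.00382). With each array left out it was 3.63 to 4.44 and 2.80 to 3.79. CTNNA2 was 9.01 to 9.13 and 8.69 to 8.77 over those settings, and 9.08 to 9.14 and 8.62 to 8.90 with arrays left out, in UNX and sham dogs. Its other probe sets gave 5.68, 2.47 and 2.28 in UNX dogs and 5.34, 2.03 and 2.62 in sham dogs.

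Signs that turned belonged to differences that were not called. GJA1 between chambers was 0.088 in UNX dogs with the 3' gap as covariate, and -0.072 in sham dogs on the other probe set. With arrays left out it was -0.62 to -0.28 in UNX dogs and -0.23 to 0.30 in sham dogs, below 0 without sham atrium 1 (-0.03), sham atrium 4 (-0.04) or sham ventricle 3 (-0.23). For uninephrectomy in the atrium, other probe sets gave 0.22 and 0.37 for CTNNA2, 0.25 for GJA1 and 0.10 for GJA5. With arrays left out, these were -0.10 to -0.02 for CTNNA2, -0.24 to 0.10 for GJA1 and -0.10 to 0.07 for GJA5. GJA1 turned to 0.09, 0.10, 0.07 and 0.08 without sham atrium 1, sham atrium 4, UNX atrium 4 or UNX atrium 5. GJA5 turned to 0.066, 0.053, 0.014, 0.043 and 0.015 without sham atrium 1, sham atrium 4, UNX atrium 2, UNX atrium 4 or UNX atrium 5. The difference of effects was -0.34 for CTNNA2 and -0.13 for GJA5 on other probe sets. The causes were not tested.

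Leaving out 1 array moved the count of uninephrectomy calls from 0 to 1 in the atrium (without sham atrium 5), and in the ventricle to 4 (without sham ventricle 1) or 1 (without UNX ventricle 1 or 4). The ventricular ranges were -0.55 to -0.27 for CTNNA2, 0.13 to 0.68 for GJA1 and -1.23 to -0.24 for GJA5. Those of the difference of effects were 0.22 to 0.49, -0.75 to -0.20 and 0.22 to 1.21, with 0 calls. Chamber calls were 7046 to 8433 in UNX dogs and 5244 to 6345 in sham dogs.

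With the replicate block, 8312 probe sets were called between chambers in UNX dogs (8190 without it) and 6411 in sham dogs (6257 without it). GJA5 had an adjusted p of 0.000304 in UNX dogs and 0.00135 in sham dogs (limma), and the block changed no call of the 3 genes. The block joined arrays of equal number, which the deviations did not pair in UNX dogs, so its UNX results do not account for dogs.

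The 5 arrays a group limit precision. The standard error of a GJA5 difference, 0.63, came from 1 spread pooled over the 4 groups and rests mostly on the ventricular scatter. Signals near the bottom of the scale, as CTNNA2 in ventricles, have no resolved order.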
